A study of Mus musculus with 12 samples.

Results

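Cps1 and Ass1, 2 genes of the urea cycle, were chosen by name, and their 5-hydroxymethylcytosine (5hmC) was read over the gene body and over the promoter window in every library. The deposited tables hold 13581 genes, among them all 8 genes of the urea cycle list used here. Genomic DNA came from mouse embryonic stem cells (ESC) and from heart and liver, each dissected as whole tissue and frozen. The ESC were the EB5 line on a 129/Ola background, grown with LIF and sampled at day 3, and all heart and liver samples were from C57BL6/j mice. Heart and liver were taken at embryonic day 14 (E14), at neonatal day 1 to 2 (P1) and at 8 weeks (W8). No genetic change and no treatment is named for any group. The 12 libraries make 7 groups, with 2 libraries in every group except the E14 tissues, which have 1 each. Whether replicate libraries came from different animals or cultures is not stated, so a p-value here reflects the spread among libraries, which may be technical. The reads were paired-end of 75 bp in ESC and at P1, and single-end of 50 bp at E14 and W8. Read format therefore goes with age and cannot be told apart from it between P1 and the other ages, and strain cannot be told apart from cell source between ESC and the tissues.

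The urea cycle turns ammonia from amino acid breakdown into urea, and it runs in full in hepatocytes. Cps1 is the mitochondrial carbamoyl phosphate synthetase that feeds ammonia into the cycle at its rate-limiting step. Ass1 is the cytosolic argininosuccinate synthase, which joins citrulline to aspartate, and unlike Cps1 it is also used in many other cells to rebuild arginine from citrulline. 5hmC is made from 5-methylcytosine by the Tet enzymes and is known to lie over the bodies of transcribed genes. In the hMe-Seal assay used here, an azide-bearing glucose is attached to 5hmC, biotin is coupled to it and the tagged fragments are captured and sequenced, so a value is relative to other regions and libraries and does not give the share of cytosines modified.

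Each value is an FPKM, the number of reads scaled to the length of the region and to the size of the library. The body of Cps1 (NM_001080809) spans chr1:67171600-67277833 in mm9, exons and introns together. At 106 kb it was longer than 86.5% of the bodies in the tables. The body of Ass1 (NM_007494) spans chr2:31327727-31376192 in mm9 and is 48.5 kb long, against a median of 25.1 kb over all genes. The promoter windows are the 4000 bp just before each body, chr1:67167600-67171599 for Cps1 and chr2:31323727-31327726 for Ass1. They hold the annotated start, since RefSeq gene spans were longer than the deposited bodies by a median of 2028 bp.

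The reads over gene bodies came to between 604012 and 5761640 per library, except in W8 heart replicate 2, which had 142778. In that library the median gene body held 5.04 reads and 9.94% of bodies stood at 0, so several W8 heart results are given with and without it. Intervals given for reads are exact 95% Poisson intervals and cover counting error only. In whole tissue, fewer cells of a type and less 5hmC per cell cannot be told apart.

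Over the gene body, 5hmC of Cps1 was highest in liver and stood higher at each later age. In ESC its body FPKM was 0.205 and 0.264, from 44 and 111 reads. In heart it was 0.153 at E14, 0.251 and 0.243 at P1 and 0.312 and 0.290 at W8, the last from 10 reads in the shallow library. In liver it was 0.306 at E14, 0.948 and 0.830 at P1 and 1.58 and 1.75 at W8, from 505, 96, 314, 1492 and 1505 reads. All P1 and W8 liver libraries lay above every heart and ESC library, while the single E14 liver library lay within the range of W8 heart. Ranked among all genes of its own library, the Cps1 body stood at percentile 13.5 in E14 liver, at percentiles 44.8 to 48.7 in P1 liver and at percentiles 84.1 to 88.1 in W8 liver. In heart and ESC it stayed between percentiles 5.72 and 24.1.

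Per length, the body of Ass1 carried more 5hmC than that of Cps1 in every library, and its values were high in ESC as well as in liver. In ESC its body FPKM was 2.03 and 1.88, from 198 and 362 reads. In heart it was 0.418 at E14, 0.875 and 0.780 at P1 and 0.674 and 0.822 at W8. In liver it was 0.691 at E14, 2.27 and 2.61 at P1 and 3.48 and 3.22 at W8, from 520, 105, 450, 1498 and 1266 reads. The W8 liver libraries were the highest and both ESC libraries lay above all heart libraries and above E14 liver. The single E14 liver library lay between the W8 heart replicates. Among all genes Ass1 stood at percentiles 90.2 to 91.2 in ESC, 73.4 in E14 liver, 91.8 to 96.9 in P1 liver and 99.0 in both W8 liver libraries, against 26.6 to 65.2 in heart.

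**Figure D1:**
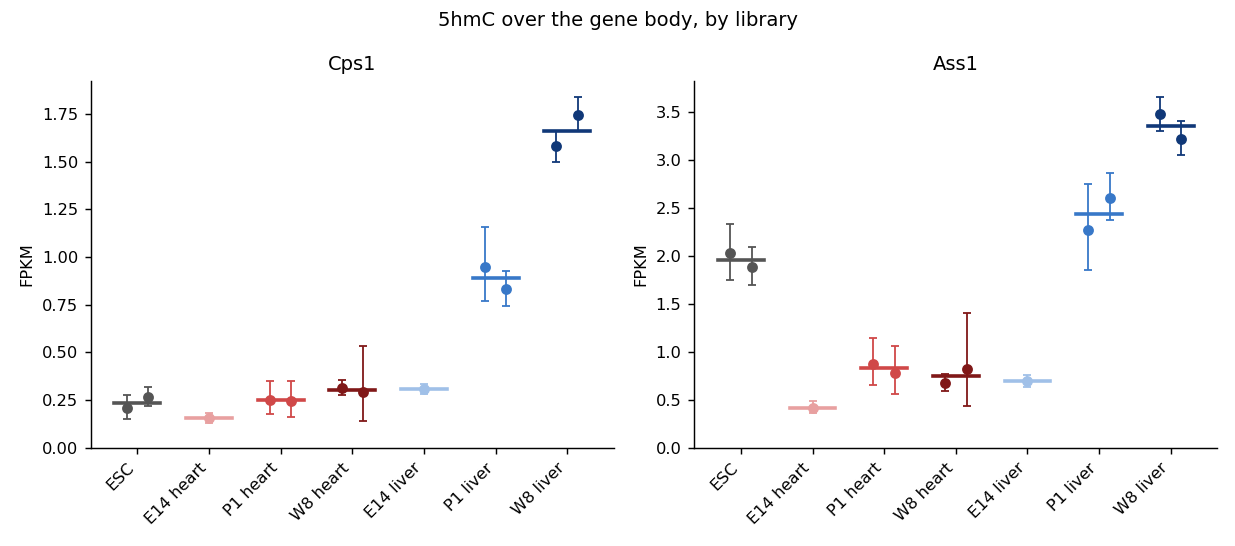
Gene-body 5hmC of Cps1 and Ass1 in FPKM on a linear axis from 0, by group. Each point is 1 library with its exact 95% Poisson interval and each bar is the group mean; P1 and W8 liver stand above all heart libraries for both genes, and ESC stands at 1.88 to 2.03 for Ass1 but at 0.205 to 0.264 for Cps1.

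At W8 both genes carried more 5hmC in liver than in heart. Mean body FPKM of Cps1 was 1.66 ± 0.119 (SD, n = 2) in W8 liver and 0.301 ± 0.0156 (SD, n = 2) in W8 heart, a ratio of 5.52. For Ass1 it was 3.35 ± 0.181 (SD, n = 2) and 0.748 ± 0.104 (SD, n = 2), a ratio of 4.48. On the log2(FPKM + 0.0746) scale, which understates the fold of low values, Cps1 was higher by 2.21 ± 0.17 (SE; limma adjusted p = 0.00349) and Ass1 by 2.06 ± 0.16 (limma adjusted p = 0.00349). The median of all genes was 0.32, so the differences were 1.88 and 1.74 above it. In this comparison 21.3% of the 13484 genes tested were called higher in liver and 9.49% lower. After centring each library on its median the shares were 10.1% and 16.4%, with Cps1 still at 1.89 and Ass1 at 1.75. Without W8 heart replicate 2 the differences were 2.17 ± 0.18 and 2.19 ± 0.16. The calls were lost without W8 liver replicate 1 (adjusted p = 0.0553) and without W8 liver replicate 2 (adjusted p = 0.0607), with the differences still between 2.01 and 2.28, and also in a fit of only the 2 groups compared (adjusted p = 0.0891).

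The newborn tissues, which share 1 read format, showed the same direction. Mean body FPKM of Cps1 was 0.889 ± 0.0828 (SD, n = 2) in P1 liver and 0.247 ± 0.00584 (SD, n = 2) in P1 heart, a ratio of 3.60. That of Ass1 was 2.44 ± 0.238 (SD, n = 2) and 0.827 ± 0.0670 (SD, n = 2), a ratio of 2.95. The log2 difference was 1.58 ± 0.17 for Cps1 and 1.48 ± 0.16 for Ass1 (limma adjusted p = 0.0289 for each), which is 1.35 and 1.25 above the median of all genes. Only 1.93% of genes were called higher in P1 liver and 0.349% lower, or 0.386% and 0.705% after median centring. Both calls were lost without any 1 of the ESC, P1 heart, P1 liver and W8 liver libraries (adjusted p from 0.0533 to 0.230), although the differences stayed between 1.38 and 1.67. They held without either W8 heart library and were lost in a fit of only the 2 groups compared (adjusted p = 0.0995). Whether the tissue difference was wider at W8 than at P1 did not pass the test, with 0.63 ± 0.24 for Cps1 and 0.58 ± 0.22 for Ass1 (limma adjusted p = 0.227 for each), where 0.0148% of genes were called in either direction.

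At E14 the 1 library of each tissue was set beside the other and not tested. Body FPKM of Cps1 was 0.306 in liver and 0.153 in heart, a ratio of 2.00. The ratio for Ass1 was 1.65. The counting intervals of the 2 libraries did not overlap for either gene.

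From E14 to W8, libraries of 1 read format, both genes gained 5hmC in liver. The mean of Cps1 was 5.44 times and that of Ass1 4.85 times the E14 level. The log2 differences were 2.19 ± 0.21 for Cps1 and 2.16 ± 0.19 for Ass1 (limma adjusted p = 0.0117 for each). They lay 1.72 and 1.69 above the median of all genes, which was itself 0.47. In this comparison 17.9% of genes were called higher at W8 and 2.83% lower, and after median centring the shares were 3.46% and 8.71%, with Cps1 at 1.68 and Ass1 at 1.65. E14 liver has 1 library and was taken to vary like the other groups. The calls were lost without W8 liver replicate 1 (adjusted p = 0.0987) and without W8 liver replicate 2 (adjusted p = 0.0977).

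In heart the same interval gave 0.72 ± 0.21 for Cps1 and 0.73 ± 0.19 for Ass1, neither past the test (limma adjusted p = 0.399 for each). In that comparison 0% of genes were called by limma, while 1638 had an unadjusted p under 0.05. Without W8 heart replicate 1 the value of Ass1 was 0.86 (adjusted p = 0.0186), and without W8 heart replicate 2 it was 0.60 (adjusted p = 0.291). Tested directly, the difference between liver and heart was larger at W8 than at E14 by 1.47 ± 0.29 for Cps1 (limma adjusted p = 0.0287) and 1.43 ± 0.27 for Ass1 (limma adjusted p = 0.0282), against a median of 0.60 over all genes. There 12.7% of genes were called higher and 2.15% lower. This result depended on the scaling of the libraries. After median centring it was 0.83 for Cps1 (adjusted p = 0.122) and 0.79 for Ass1 (adjusted p = 0.122), and 1.75% of genes were called higher and 6.7% lower. After quantile normalization it was 1.11 (adjusted p = 0.0962) and 0.45 (adjusted p = 0.361). The calls were also lost without any 1 of the ESC, P1 liver and W8 liver libraries (adjusted p from 0.0522 to 0.122) and in a fit of only the 4 groups compared (adjusted p = 0.188). Without W8 heart replicate 2 the values were 1.43 and 1.56 and both passed (adjusted p = 0.0166 and adjusted p = 0.0125).

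Between P1 and W8 liver, where read format changes with age, the members differed in their calls. Cps1 was higher at W8 by 0.85 ± 0.17 (limma adjusted p = 0.0272), 1.87 times its P1 mean. Ass1 differed by 0.45 ± 0.16 (limma adjusted p = 0.125, 95% interval 0.07 to 0.82). All genes had a median of -0.23, with 0.934% called higher and 8.91% lower, or 2.14% and 3.59% after median centring. The call for Cps1 was lost without any 1 of the ESC, P1 liver and W8 liver libraries (adjusted p from 0.0539 to 0.220). That for Ass1 passed without W8 heart replicate 1 (adjusted p = 0.0475) or replicate 2 (adjusted p = 0.0481). Whether the 2 genes differed in this gain was not tested.

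Against ESC, in paired-end libraries of different strains, Cps1 passed the test in P1 liver and Ass1 in P1 heart. Cps1 was higher in P1 liver than in ESC by 1.64 ± 0.17 (limma adjusted p = 0.00712), where 10.4% of genes were called higher and 5.05% lower. In P1 heart it differed from ESC by 0.06 ± 0.17 (95% interval -0.34 to 0.47, limma adjusted p = 0.832). Ass1 differed between P1 liver and ESC by 0.31 ± 0.16 (95% interval -0.07 to 0.68, limma adjusted p = 0.232), and was lower in P1 heart than in ESC by 1.17 ± 0.16, a log2 difference of -1.17 (limma adjusted p = 0.0141). In P1 heart against ESC 5.6% of genes were called higher and 7.1% lower, or 11.3% and 4.96% after median centring, with Ass1 at -0.98. The mean of Ass1 in ESC, 1.96 ± 0.0998 (SD, n = 2), was 2.36 times that in P1 heart. P1 heart, P1 liver and ESC each enter more than 1 of these comparisons, so they are not independent. The Cps1 call was lost without ESC replicate 1 (adjusted p = 0.0680), ESC replicate 2 (adjusted p = 0.0548) or P1 liver replicate 1 (adjusted p = 0.0612). The Ass1 call was lost without either ESC library, P1 heart replicate 2 or either W8 liver library (adjusted p from 0.0522 to 0.106).

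Ordered by the log2 group means, Cps1 ran from W8 liver through P1 liver, E14 liver, W8 heart, P1 heart and ESC to E14 heart. The libraries of E14 liver and W8 heart overlapped (step of 0.02 ± 0.21), as did those of P1 heart and ESC (0.06 ± 0.17). The largest step was from P1 liver to E14 liver, 1.34 ± 0.21, between libraries of different read format. As a ratio to the median gene of its library, Cps1 stood at 0.586 in E14 liver, 0.913 to 0.978 in P1 liver and 2.06 to 2.25 in W8 liver. On that scale the rise from P1 to W8 liver was the larger. Ass1 ran from W8 liver through P1 liver, ESC, P1 heart, W8 heart and E14 liver to E14 heart. Here P1 heart overlapped W8 heart (0.14 ± 0.16) and W8 heart overlapped E14 liver (0.10 ± 0.19). Its largest step was from ESC to P1 heart, 1.17 ± 0.16. These steps are a description of the order and carry no test of their own.

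The promoter windows held few reads, and neither gene passed the limma test there in any of the 9 comparisons, in which 0% (4 comparisons), 0.00741% (3), 0.0741% (P1 heart against ESC) or 0.215% (P1 liver against ESC) of windows were called. For Cps1 the window FPKM in liver was 0.467 at E14 from 29 reads, 0.524 and 0.211 at P1 from 2 and 3 reads, and 0.253 and 0.307 at W8 from 9 and 10 reads. In heart it was 0.0311 at E14 from 1 read, 0 in both P1 libraries, and 0.0699 and 0 at W8. In ESC it was 0.124 and 0.189 from 1 and 3 reads. The interval of E14 liver, 0.313 to 0.671, did not overlap that of E14 heart, 0.000798 to 0.176. For the pair of W8 liver libraries together, 19 reads gave 0.280 with an interval of 0.168 to 0.437, which overlapped that of E14 liver. From E14 to W8 liver the log2 difference of the Cps1 window was -0.62 ± 1.00 (95% interval -2.76 to 1.53, limma adjusted p = 1.00), against 2.19 over its body, and the difference between window and body was not tested. In P1 heart the 0 reads of both libraries together still allow 0.391 FPKM, which is above the level in P1 liver of 0.277 from 5 reads, so no fold is given. Unadjusted, the Cps1 window had a limma p under 0.05 between liver and heart at P1 and at W8. So did 1256 and 2291 of the 13504 windows tested. The fitted W8 difference was 1.77 ± 0.82 (limma adjusted p = 0.291), and 1.29 ± 0.89 without W8 heart replicate 2.

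The Ass1 window held reads in all libraries but 1. Its FPKM was 0.992 and 0.946 in ESC, 0.787 in E14 heart, 2.16 and 1.38 in P1 heart and 0.759 and 0 in W8 heart. In liver it was 0.582 at E14, 1.57 and 2.18 at P1 and 0.790 and 0.833 at W8. In FPKM the P1 libraries of both tissues were the highest, from 11 and 6 reads in heart and 6 and 31 in liver. Ranked among the windows of its own library, P1 liver replicate 1 stood at percentile 71.5, below W8 heart replicate 1 at 71.9. Liver and heart overlapped at P1, where the log2 difference was 0.09 ± 0.86. The W8 difference of 1.83 ± 0.86 (limma adjusted p = 0.296) rested on the 0 in W8 heart replicate 2, where no read still allows 2.83 FPKM. It was 0.09 ± 0.46 without that library and 3.57 (adjusted p = 0.000343) without W8 heart replicate 1. In the W8 liver libraries the body FPKM of Ass1 was 4.41 and 3.87 times that of its window. In P1 heart it was 0.405 and 0.564 times.

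**Figure D2:**
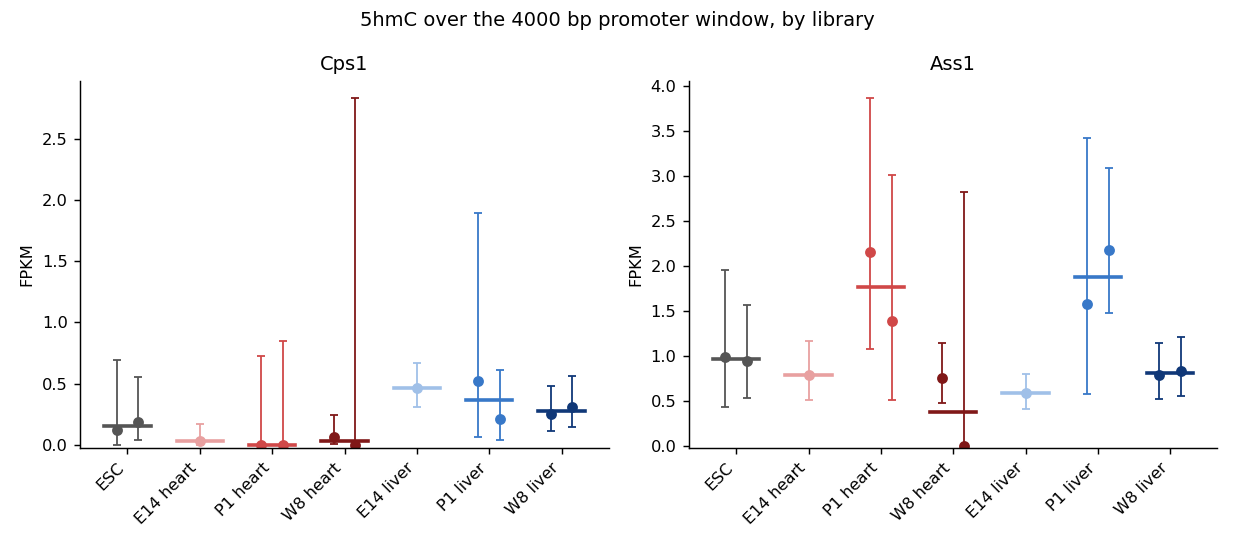
Promoter-window 5hmC of Cps1 and Ass1 in FPKM on a linear axis, by group, with points, exact 95% Poisson intervals and mean bars as over the bodies. Cps1 shows its highest well-counted value in E14 liver, 0.467, and Ass1 its highest values in the P1 libraries; W8 heart replicate 2 holds 0 reads and an interval up to 2.83 for both.

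Since 5hmC forms only where methylated cytosines are, mostly at CG dinucleotides, the sequence around the start of the Ass1 gene is shown beside that of Otc, the enzyme that makes citrulline, as a CG-rich and a CG-poor start within 1 pathway. Both run from 250 bases before to 50 bases after the RefSeq start (GRCm38.p6, plus strand, Ass1 at chr2:31470020-31470319 and Otc at chrX:10252055-10252354), with CG in capitals. Of the 8 urea cycle genes 5 had such a sequence in the RefSeq table.
Ass1: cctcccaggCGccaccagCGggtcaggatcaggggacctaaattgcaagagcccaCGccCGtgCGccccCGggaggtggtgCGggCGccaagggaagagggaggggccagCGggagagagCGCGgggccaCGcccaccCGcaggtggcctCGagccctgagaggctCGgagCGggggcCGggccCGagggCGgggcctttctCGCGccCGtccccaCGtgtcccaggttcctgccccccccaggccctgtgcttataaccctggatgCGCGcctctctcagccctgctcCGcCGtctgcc
Otc: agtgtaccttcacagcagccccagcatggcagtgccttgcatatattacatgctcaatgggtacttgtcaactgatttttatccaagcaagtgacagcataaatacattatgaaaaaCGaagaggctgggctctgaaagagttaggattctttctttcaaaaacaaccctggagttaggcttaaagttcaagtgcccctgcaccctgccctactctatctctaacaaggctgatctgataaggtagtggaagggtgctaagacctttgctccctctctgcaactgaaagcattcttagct
The Ass1 start holds 27 CG, more than 84.5% of the 32851 promoters of the same length, whose median is 7, and its GC content is 74%. The Otc start holds 1 CG, more than 5.43% of promoters, with a GC content of 44.3%. On either strand the Ass1 sequence holds GGGCGG 1 time, a motif found in 35.7% of promoters, TATAA 2 times (24.9%) and CACGTG 1 time (7.15%), and CCAAT is not in this window (37.4%). GGGCGG and CACGTG each contain CG, and the 2 matches of TATAA lie at 1 place, 1 on each strand. The 4000 bp promoter window of Otc, longer than the sequence shown, held between 0 and 8 reads per library, against 0 to 36 for Ass1. CG was not counted over the 4000 bp windows, and whether the number of CG goes with 5hmC was not tested.

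Most other urea cycle genes were also higher in liver at W8. Of the 8 genes 7 were higher in W8 liver than in W8 heart and none was lower, with a median of 1.90 against 0.32 over all genes, where 21.3% were called higher. Beside Cps1 and Ass1 these were Asl (2.48 ± 0.40), which splits argininosuccinate, Arg1 (1.73 ± 0.25), the arginase that releases urea, and Otc (1.29 ± 0.29). The mitochondrial carriers also passed, Slc25a15 for ornithine (1.52 ± 0.31) and Slc25a13 for aspartate and glutamate (1.00 ± 0.16). In the shallow W8 heart replicate 2 the bodies of Asl, Arg1, Otc and Slc25a15 held only 1, 2, 6 and 8 reads. In W8 heart replicates 1 and 2 Asl stood at 0.544 and 0.267 FPKM and Arg1 at 0.620 and 0.598. Otc stood at 0.120 and 0.274 and Slc25a15 at 0.524 and 1.17. Nags, which makes the activator of Cps1, had 3.69 ± 1.19 and did not pass (limma adjusted p = 0.0532), with its W8 heart libraries at 1.40 and 0 FPKM. Median centring left 6 of the 8 past the test.

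At P1 only Cps1 and Ass1 of the 8 passed against heart, with a median of 1.21 against 0.23 over all genes, of which 1.93% were called higher. Otc had 1.52 ± 0.29 (limma adjusted p = 0.0507), Asl 1.21 ± 0.40, Arg1 1.20 ± 0.25 (limma adjusted p = 0.0620), Nags 1.16 ± 1.19 and Slc25a15 0.80 ± 0.31. Slc25a13 had 0.17 ± 0.16, below the median of all genes. Without W8 heart replicate 2, 6 of the 8 passed and 16.5% of genes were called higher.

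From E14 to W8 liver 6 of the 8 rose and none fell, with a median of 2.04 against 0.47 over all genes, of which 17.9% were called higher and 2.83% lower. The largest was Arg1 (2.72 ± 0.31), from 0.271 FPKM in E14 liver to a mean of 2.21 in W8 liver. Slc25a15 rose by 1.91 ± 0.38, Slc25a13 by 1.59 ± 0.19 and Otc by 1.27 ± 0.36. Asl (1.62 ± 0.49, limma adjusted p = 0.0578) and Nags (2.49 ± 1.45, limma adjusted p = 0.253) did not pass. Median centring left 4 of the 8 past the test. In heart 0 of the 8 passed limma's test between the same ages, where 0% of all genes did. Their median was 0.11 against -0.10 over all genes. Unadjusted, 2 (Cps1 and Ass1) had a limma p under 0.05, as did 1638 of all 13484 genes. The tissue difference was larger at W8 than at E14 for 4 of the 8, Cps1, Ass1, Arg1 (2.57 ± 0.44) and Slc25a13 (1.54 ± 0.27), against 12.7% of all genes, and for 1 after median centring.

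Against ESC 3 of the 8 passed, where 10.4% of all genes were called higher and 5.05% lower. Cps1, Otc (1.38 ± 0.29) and Arg1 (1.02 ± 0.25) were higher in P1 liver, and the other 5 did not pass, with a median of 0.58 against 0.10. Nags stood at 4.39 ± 0.216 FPKM (SD, n = 2) in ESC and 3.17 ± 0.0396 in P1 liver. Asl stood at 1.66 ± 0.846 in ESC and 1.45 ± 0.00493 in P1 liver. For Nags and Asl the mean in ESC lay above that in P1 liver. For Cps1, Ass1, Otc, Arg1, Slc25a13 and Slc25a15 it lay below. The ESC libraries of Asl stood at 2.26 and 1.06, on either side of those of P1 liver. In P1 liver the Nags body held only 6 and 22 reads. In P1 heart against ESC 1 of the 8 was lower, Ass1, and none was higher, where 7.1% of all genes were called lower.

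**Figure D3:**
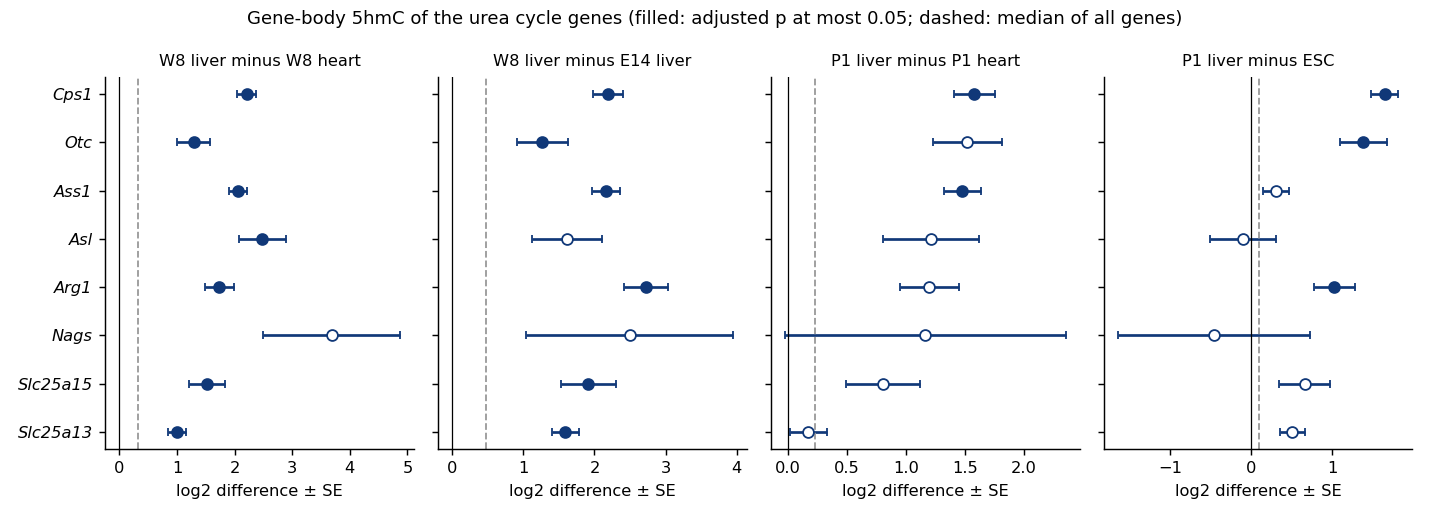
Gene-body log2 differences ± SE of the 8 urea cycle genes in 4 comparisons, each panel on its own axis, with filled points for an adjusted p of at most 0.05 and a dashed line at the median of all genes. In the comparison of W8 liver with W8 heart 7 points are filled, and in that of P1 liver with ESC Cps1, Otc and Arg1 are.

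Genes around the cycle were read from lists drawn up for this purpose. Of 25 measured genes of amino acid breakdown (Otc among them) 22 were higher in W8 liver than in W8 heart, with a median of 1.49 against 0.32 over all genes, of which 21.3% were called higher and 9.49% lower. They were led by Mat1a (2.66 ± 0.73), Cth (2.50 ± 0.30) and Prodh2 (2.29 ± 0.29). After median centring 16 were higher and 1 was lower. From E14 to W8 liver 20 rose (11 after median centring), with a median of 1.65 against 0.47 and 17.9% of all genes called higher, led by Tat (2.42 ± 0.52), Bhmt (2.21 ± 0.23) and Tdo2 (2.14 ± 0.39). At P1 5 of the 25 were higher in liver than in heart (1 after median centring), with a median of 0.92 against 0.23 and 1.93% of all genes called higher.

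Of 13 genes that handle ammonia and glutamine 5 were higher in W8 liver than in W8 heart, with a median of 0.67 against 0.32 and 21.3% of all genes called higher, led by Gls2 (2.07 ± 0.26), the liver glutaminase. After median centring 2 were higher and 1 was lower. At P1 2 of the 13 were higher in liver than in heart, with 1.93% of all genes called, Glud1, the glutamate dehydrogenase (1.53 ± 0.28), and the glutamine carrier Slc38a3. Neither passed after median centring. Of 16 measured transcription factors and receptors named as regulators of urea cycle genes 7 were higher in W8 liver than in W8 heart (2 after median centring), with a median of 0.82 against 0.32 and 21.3% of all genes called higher. They were led by Nr1i3 (2.43 ± 0.18), Hnf4a (1.55 ± 0.34) and the glucagon receptor Gcgr (0.99 ± 0.27). At P1 1 of the 16, Hnf4a (1.86 ± 0.34), was higher in liver than in heart, where 1.93% of all genes were called higher. After median centring 0 of the 16 passed.

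The nearest measured genes on each chromosome, in the order of the RefSeq table, were taken for comparison. Around Cps1 these were Myl1 and Lancl1 on one side and Erbb4 and Ikzf2 on the other, and around Ass1 Gpr107 and Ncs1, then Fubp3 and Exosc2. None of the 8 was called higher in liver than in heart at P1 or at W8, where 1.93% and 21.3% of all genes were. At W8 Ikzf2 (-0.91 ± 0.20) and Ncs1 (-1.29 ± 0.27) were lower in liver, as were 9.49% of all genes. The closest to a gain was Lancl1 with 0.88 ± 0.28 (limma adjusted p = 0.0513). From E14 to W8 liver Exosc2 rose by 0.86 ± 0.24 (limma adjusted p = 0.0438) and Ikzf2 fell by 1.09 on the log2 scale (SE 0.25). The other 6 did not pass, with values from -0.41 for Ncs1 to 0.51 for Lancl1. Of all genes 17.9% were called higher at W8 than at E14 in liver and 2.83% lower.

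**Figure D4:**
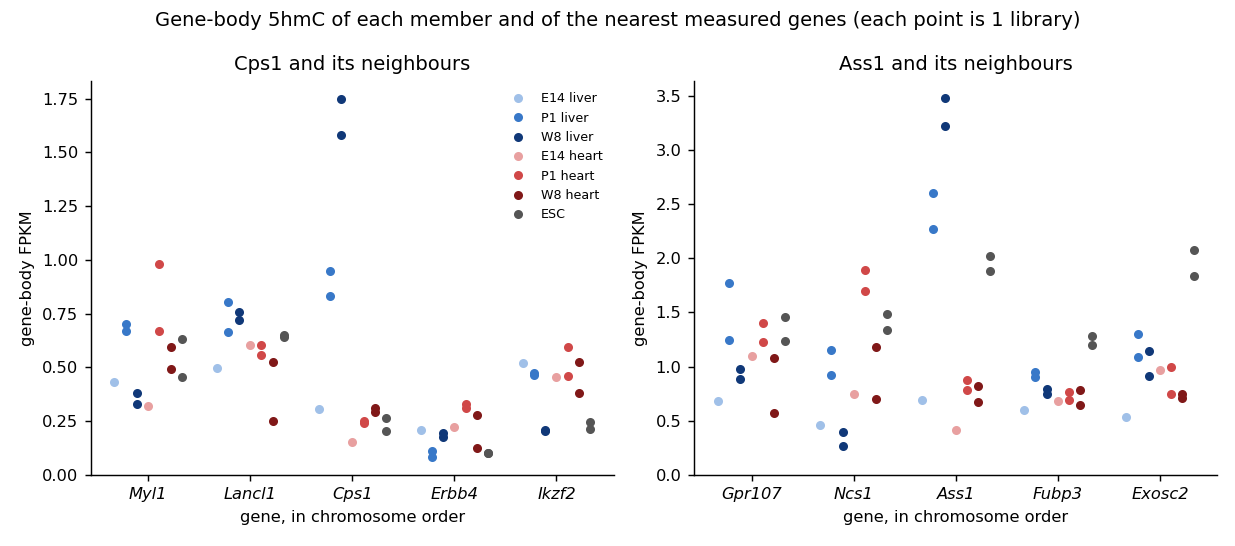
Gene-body FPKM on a linear axis from 0 for Cps1 (left) and Ass1 (right) and the 2 nearest measured genes on each side, in chromosome order, with 1 point per library coloured by group. The W8 liver points of Cps1 (1.58 and 1.75) and Ass1 (3.48 and 3.22) stand above all points of their neighbours.

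The genes most like each member were ranked by Pearson's r over the 7 group means, among 10422 genes whose means spanned at least 1 log2 unit. For Cps1 they included N4bp2l1 (r = 0.988), A1cf (0.988), a partner in apolipoprotein B mRNA editing, and the iron exporter Slc40a1 (0.988). For Ass1 they were A230050P20Rik (0.995), the urate transporter Slc2a9 (0.995), Dhdh (0.994), transferrin, Trf (0.994), and Rbm47 (0.993). With each other, Cps1 and Ass1 had r = 0.83, which put Ass1 at rank 583 for Cps1 and Cps1 at rank 888 for Ass1. The groups share libraries' depth and scaling across all genes, so these values describe the likeness and carry no p. Without W8 heart replicate 2, 2 of these 5 genes stayed among the 5 most like Ass1, and 1 of 5 for Cps1.

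The tissue labels were checked with lists of marker genes. Of 12 measured hepatocyte markers 5 were higher in W8 liver than in W8 heart and 2 at P1, and of 9 cardiomyocyte markers 8 were lower in W8 liver and 3 in P1 liver. After median centring the hepatocyte counts were 4 and 1 and the cardiomyocyte counts were the same. At W8 21.3% of all genes were called higher in liver and 9.49% lower, and at P1 1.93% and 0.349%. The summed body FPKM of the hepatocyte markers was 7.73 in E14 liver, 16.8 to 16.9 in P1 liver and 14.3 to 15.5 in W8 liver, against 3.51 in E14 heart, 6.32 to 6.44 in P1 heart, 4.72 to 13.7 in W8 heart and 7.90 to 8.88 in ESC. The W8 heart range takes in the shallow W8 heart replicate 2. These sums are not scaled to the median gene of each library, and read format changes between P1 and the other ages. Within liver the sums of blood markers and of other cell type markers, given below, were also highest at P1. Cyp3a11 was at 0 in P1 heart. The sums for 9 erythroid and blood markers were 7.37 in E14 liver, 9.99 to 11.3 in P1 liver and 5.30 to 5.94 in W8 liver. They were not higher in liver alone, with 9.68 to 11.6 in ESC. In heart they were 5.94 at E14, 7.88 to 8.72 at P1 and 5.55 to 6.57 at W8. From E14 to W8 liver 2 of the 9 fell, where 2.83% of all genes did. A further 18 markers were of endothelium, fibroblasts, macrophages, stellate cells and bile duct. Their sums were 8.25 in E14 liver, 13.0 to 14.6 in P1 liver and 8.25 to 8.76 in W8 liver. In heart these were 12.1 at E14, 14.9 to 15.8 at P1 and 11.6 to 12.3 at W8, and in ESC 15.0 to 16.1. The pluripotency markers summed to 7.65 to 8.06 in ESC and 7.92 to 10.3 in P1 heart, ranges that overlapped. The part of any cell type in the values of Cps1 and Ass1 was not tested.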

How the data were processed

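Genomic DNA of 12 mouse libraries in 7 groups was profiled by 5hmC pull-down. The authors deposited, per the file headers, FPKM for a 4000 bp promoter window and for the body of each gene. The submitters' processing notes name Bowtie2 and mm9; a read counter, a scaling total and any removal of duplicates were not given in the sources used here. Chromosomes were taken from RefSeq by accession, which matched 13449 of 13581 genes. In all libraries 100% of low promoter values came out as whole reads (within 0.01 reads), with 2 step sizes in single-end libraries (ratio 1.03), so reads there are approximate. Reads recovered this way gave the depth and the 95% intervals.

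The main test was limma 3.58.1 in R 4.3.3 (with an intensity trend) on log2(FPKM + 0.0746), with 7 group means, 5 residual degrees of freedom and Benjamini-Hochberg adjustment at 0.05 over all genes within each of 9 comparisons. The filter kept bodies averaging 0.0809 FPKM or more (13484, both members included) and promoters averaging 0.0739 or more (13504), and 0 columns of per-sample values were left unused. All 8 urea cycle genes passed this filter. Cps1 and Ass1 and all gene lists were chosen with earlier results of these data known. Beyond the members, the text names all urea cycle genes, the 5 genes most like each member (for Cps1 some are not reported here), the 2 nearest genes on each side, and up to 3 genes of each other list with the largest difference past the test. Replicate numbers did not pair the libraries: the correlation of deviations over 10 pairs of groups ran from -0.01 to 0.04. Alternatives were the pseudocount, no filter, median centring, quantile normalization, a replicate block, only the groups compared, and leaving out each replicate. The script was tested on simulated data. Figures were drawn with Python 3.11.15.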

Additional observations from a re-analysis of the deposited data

Results flagged for a closer look

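For both genes the difference between liver and heart over the gene body was larger at W8 than at E14 by a test of the difference itself. The value was 1.47 for Cps1 (limma adjusted p = 0.0287) and 1.43 for Ass1 (limma adjusted p = 0.0282) on the log2 scale, with 1 library per tissue at E14. Neither passed after median centring (0.83 and 0.79, adjusted p = 0.122 for each) or after quantile normalization (1.11 with adjusted p = 0.0962 and 0.45 with adjusted p = 0.361), and each was lost in 9 of 16 alternatives in all. In both genes each W8 liver library lay above each W8 heart library.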

How the results depend on the processing

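Over the gene bodies the direction of Cps1 and Ass1 stayed the same under all alternatives in 17 of the 18 values, and Cps1 in P1 heart against ESC turned from 0.06 to -0.072 without ESC replicate 1. With a pseudocount 10 times larger, 825 genes in place of 307 were called for P1 liver against P1 heart, and 4 in place of 2 for the W8 against the P1 tissue difference. Median centring gave 147 calls for P1 liver against P1 heart, 1641 in place of 2795 for W8 against E14 liver, 1139 in place of 2001 for the W8 against the E14 tissue difference (Cps1 0.83 and Ass1 0.79, no longer called) and 773 in place of 1327 for W8 against P1 liver. Quantile normalization gave 658, 473 (Cps1 1.11 and Ass1 0.45, no longer called) and 383 for the last 3, and 1 for the W8 against the P1 tissue difference. Dropping the filter on low values changed no call of either gene.

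The replicate numbers share only a name. With the replicate block 5 genes were called for P1 liver against P1 heart, where Cps1 (1.58) and Ass1 (1.48) no longer passed (adjusted p = 0.0659), and 1 for the W8 against the P1 tissue difference. Under the block the Cps1 promoter in W8 against E14 heart was 0.11.

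With only the groups compared in the fit, 0 genes were called for P1 liver against P1 heart (Cps1 1.58 and Ass1 1.48, not called), for W8 liver against W8 heart (2.21 and 2.06, not called) and for the W8 against the E14 tissue difference (1.47 and 1.43, not called), where 3359, 6120 and 4718 genes had an unadjusted p under 0.05 in the fit of all groups. Calls numbered 8776 for W8 against E14 liver, 3446 for W8 against P1 liver and 3372 in place of 2081 for P1 liver against ESC. This fit was not run for the promoters.

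Leaving out each replicate in turn, a lone library was assumed to vary like the other groups. Calls ranged from 0 to 3021 for P1 liver against P1 heart, 0 to 6255 (4151 with all) for W8 liver against W8 heart, 0 to 5630 for W8 against E14 liver, 0 to 3615 (0 with all) for W8 against E14 heart, 0 to 5278 for the W8 against the E14 tissue difference, 0 to 3358 for W8 against P1 liver, 0 to 3929 for the W8 against the P1 tissue difference, 0 to 4540 for P1 liver against ESC and 0 to 4468 (1713 with all) for P1 heart against ESC. The member values ranged, for Cps1 and then Ass1, from 1.49 to 1.67 and 1.38 to 1.57 (P1 liver against P1 heart), 2.14 to 2.28 and 1.93 to 2.19 (W8 liver against W8 heart), 2.12 to 2.26 and 2.11 to 2.21 (W8 against E14 liver), 1.40 to 1.54 and 1.30 to 1.56 (W8 against E14 tissue difference) and 0.76 to 0.94 and 0.35 to 0.55 (W8 against P1 liver). Cps1 in P1 liver against ESC ranged from 1.51 to 1.78 and in P1 heart against ESC from -0.07 to 0.20, Ass1 in P1 heart against ESC from -1.25 to -1.10 and in W8 against E14 heart from 0.60 to 0.86.

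Promoter values, none past the test with all libraries, turned direction in 4 cases. Ass1 in P1 liver against P1 heart (0.09) was -0.28 after median centring, -0.16 after quantile normalization and -0.21 to 0.40 without 1 replicate. Cps1 in W8 against P1 liver (-0.23) was 0.25, 0.20 and -0.76 to 0.31. Cps1 in W8 against E14 heart (-0.03) was 0.0058 with the larger pseudocount, 1.26 after quantile normalization and -0.50 to 0.45. Ass1 in the W8 against the P1 tissue difference (1.73) was -0.0067 to 3.48. The cause was not tested. Windows of 0 to 36 reads limit what these can show.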

Other observations

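Carbamoyl phosphate is also made in the cytosol, by Cad, for pyrimidine synthesis. Of 8 genes of that pathway 0 passed between liver and heart at P1 (median 0.47) or at W8 (median 0.40), where 307 and 4151 of all genes were called by limma and 3359 and 6120 had an unadjusted p under 0.05, among them 2 and 3 of the 8. After median centring 1 of the 8 was lower in W8 liver. Cad, the cytosolic counterpart of Cps1, differed by 0.19 ± 0.23 between W8 liver and W8 heart. Against ESC, Cad was lower in P1 liver, with a log2 difference of -0.91 ± 0.23 (limma adjusted p = 0.0436), and in P1 heart, with -1.24 ± 0.23 (limma adjusted p = 0.0236).

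Ass1 also supplies arginine to nitric oxide synthesis and other uses. Of 13 measured genes of arginine, citrulline and nitric oxide 3 were higher and 1 was lower in W8 liver than in W8 heart, with a median of 0.10 against 0.32 over all genes, of which 21.3% were called higher and 9.49% lower. After median centring 1 was higher and 2 were lower. The arginine transporter Slc7a2, the main one of liver, was higher by 2.22 ± 0.34 (limma adjusted p = 0.00712). Slc7a1, the general arginine transporter, was lower in liver, with a log2 difference of -0.90 ± 0.15 (limma adjusted p = 0.00924). At P1 limma called 0 of the 13 between the tissues, and 3 had an unadjusted p under 0.05. Over all 13484 genes these counts were 307 and 3359.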
